A study of Mus musculus with 207 samples.

Results

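The genes described here are 38 mouse genes of the urea cycle and of amino acid breakdown, taken by name from a list and followed in liver and jejunum across 6 diets. All 38 were found among the 55536 genes of each deposited count table. The study asked, per its title, how protein quality and quantity change what dietary fat does to weight gain. Total RNA was sequenced from liver (70 libraries) and jejunum (70 libraries) of the same 70 C57BL/6 mice. Each of 2 proteins, labelled WPI and CAS, was fed at each of 3 fat labels (FAT-20, FAT-40, FAT-55), always at protein level 30. The labels do not expand WPI and CAS, which are taken here as whey protein isolate and casein. The labels give no unit for the protein or fat level, no sex and no age. Each tissue had 12, 12 and 12 WPI libraries and 11, 12 and 11 CAS libraries in order of rising fat. CAS and FAT-20 serve here as the comparison groups.

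Breakdown of amino acids releases nitrogen, which hepatocytes convert to urea through the enzymes Nags, Cps1, Otc, Ass1, Asl and Arg1, while the carbon skeletons enter the tricarboxylic acid cycle, glucose or fat. Most of the remaining genes encode enzymes that open 1 such route: tyrosine through Tat, Hpd, Hgd and Fah, histidine through Hal, Uroc1 and Amdhd1, tryptophan through Tdo2, Kmo, Kynu and Haao, and the branched-chain amino acids through Bcat2, Bckdha, Bckdhb, Ivd, Mccc1, Mccc2 and Hibadh. The small intestine lacks a complete urea cycle in adult mammals, but its enterocytes use Cps1, Otc and Oat to make citrulline from glutamine and proline. Transcripts of several of these liver enzymes are known to follow protein intake, glucagon and glucocorticoids.

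Gene-assigned reads came to 21 to 41 M per library in liver and 17.5 to 23.8 M in jejunum. The tissue labels stood with their markers: summed hepatocyte markers had diet medians of 87953 to 112290 CPM (reads of a gene scaled to a common library total) in liver and 11524 to 15261 CPM in jejunum, where the apolipoprotein genes of that list are also transcribed. WPI FAT-55 replicate 2 stood apart from the other livers on a principal component. WPI FAT-20 replicates 1 and 9 stood apart in jejunum, where the summed ileum markers Fabp6, Slc10a2 and Fgf15 reached 382 CPM in a group with a median of 2.97 CPM. Results that change without these libraries are given with and without them. Mouse identifiers share stems (the identifier without its last digit, 24 per tissue), and the labels do not say what a stem stands for. Each stem lay within a single diet, with 4 stems per diet, and held 2 or 3 mice. The consensus correlation within stems was 0.16 in liver and 0.114 in jejunum. Tests below that do not name stems treated the mice of a stem as independent.

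All 38 genes were transcribed in liver, where each passed the filter on low counts, and 31 of the 38 passed it in jejunum. Tat, Sds, Hgd, Aass, Gldc, Amdhd1 and Uroc1 did not, and were not tested there. On the scale of CPM per kilobase of exon, the highest mean level in liver was that of Ass1 (1022), followed by Hpd (954), Tat (827), Cps1 (662), Oat (623), Arg1 (560) and Tdo2 (536). The lowest liver levels were those of Bcat2 (6.82), Sdsl (6.17) and Mccc1 (4.39), all in CPM per kilobase, and the long annotated exon set of Mccc1 (10952 bases) lowers its figure. In jejunum the order was led by Oat (381), Cps1 (110), Gpt (106), Got1 (56.3), Otc (49.1) and Cth (39.3), again in CPM per kilobase. The first and middle steps of the urea cycle thus stood high in jejunum, with Nags at 17.1 CPM per kilobase, while the later steps were low, with Asl at 4.82, Ass1 at 2.58 and Arg1 at 0.568. Sdsl was higher per kilobase in jejunum (16.7) than in liver (6.17), and Gpt and Nags were nearly level between the tissues. Reads of Uroc1 were absent from 55 and those of Amdhd1 from 49 of the 70 jejunal libraries. In bulk tissue, fewer cells of a type and less RNA per cell cannot be told apart, and this holds for every level and change below.

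**Figure D1:**
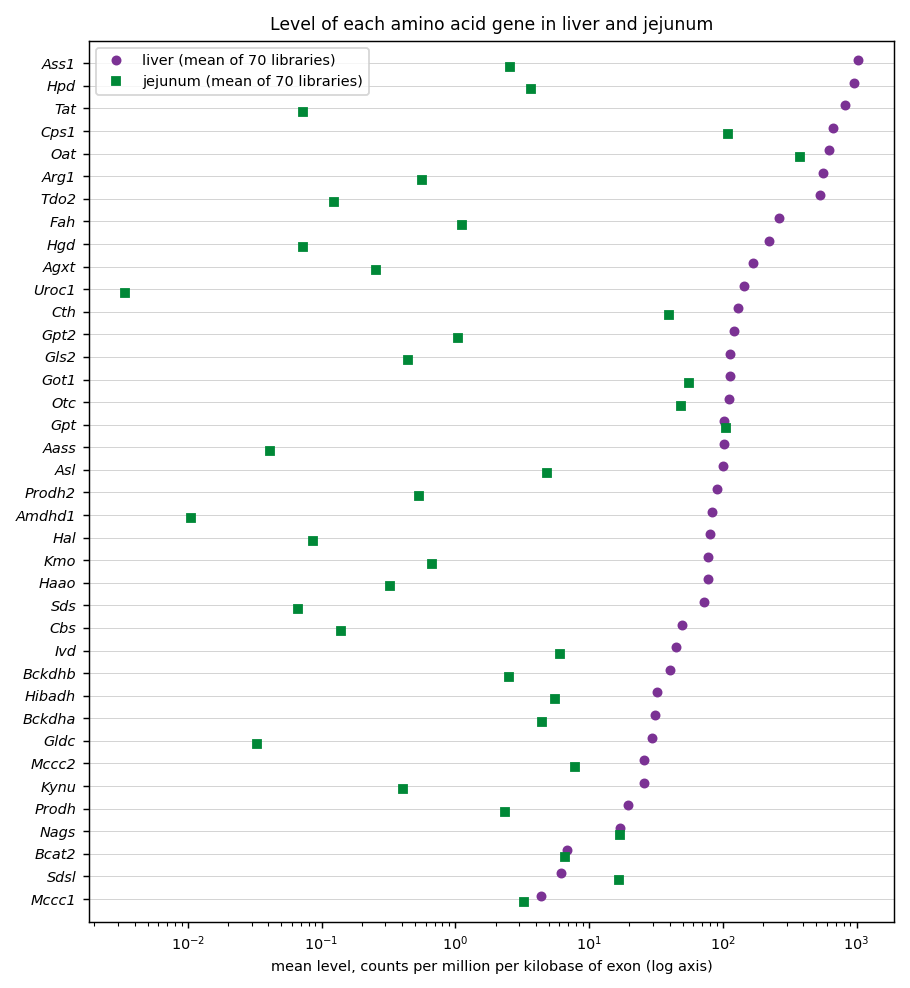
Mean level of each of the 38 genes in liver (circles) and jejunum (squares), in CPM per kilobase of exon on a log axis, over 70 libraries each, ordered by the liver level. Ass1, Hpd and Tat lead in liver, Oat and Cps1 lead in jejunum, and Sdsl is the gene with the clearest excess in jejunum.

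Spread between mice of 1 diet differed from gene to gene. In liver, the median coefficient of variation within a diet was 7.19% for Bckdha, 7.23% for Mccc2 and 8.17% for Mccc1, against 34.8% for Asl, 34.2% for Got1 and 32.9% for Prodh. Otc varied little (10.2% in liver, 10.9% in jejunum), and the jejunal level of Haao varied by 86.1%. A change of 1 size is easier to detect where this spread is small. Annotated neighbours overlap some loci on the opposite strand (Fh1 at Kmo, Psmd9 at Hpd, Plbd2 at Sds, B3gnt8 at Bckdha, Spryd4 at Gls2, Dgcr6 at Prodh, and antisense genes at Nags, Hgd, Mccc1, Bcat2, Sds and Bckdhb), and without a stated strand setting their reads may not be told apart. On the same strand, Fgfr2 overlaps Oat and a lincRNA overlaps Hpd, where a strand setting would not separate reads.

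Diets were compared in each tissue with edgeR's quasi-likelihood test fitted over all genes, and a gene was called at a Benjamini-Hochberg adjusted p under 0.05 over the 15051 genes kept in liver or the 16992 kept in jejunum. Adjusted p-values below are from that test, and changes are log2 fold changes with their standard error. The fat comparisons on 1 protein share the FAT-20 group, so their values are set side by side without a measure of overlap. Over 12 comparisons, 26 of the 38 genes were called at least once in liver and 21 of the 31 tested in jejunum. The share of all genes called at least once was not computed, so these counts do not set the genes apart from others. Arg1, Cps1 and Got1 were tested in both tissues and called in neither.

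**Figure D2:**
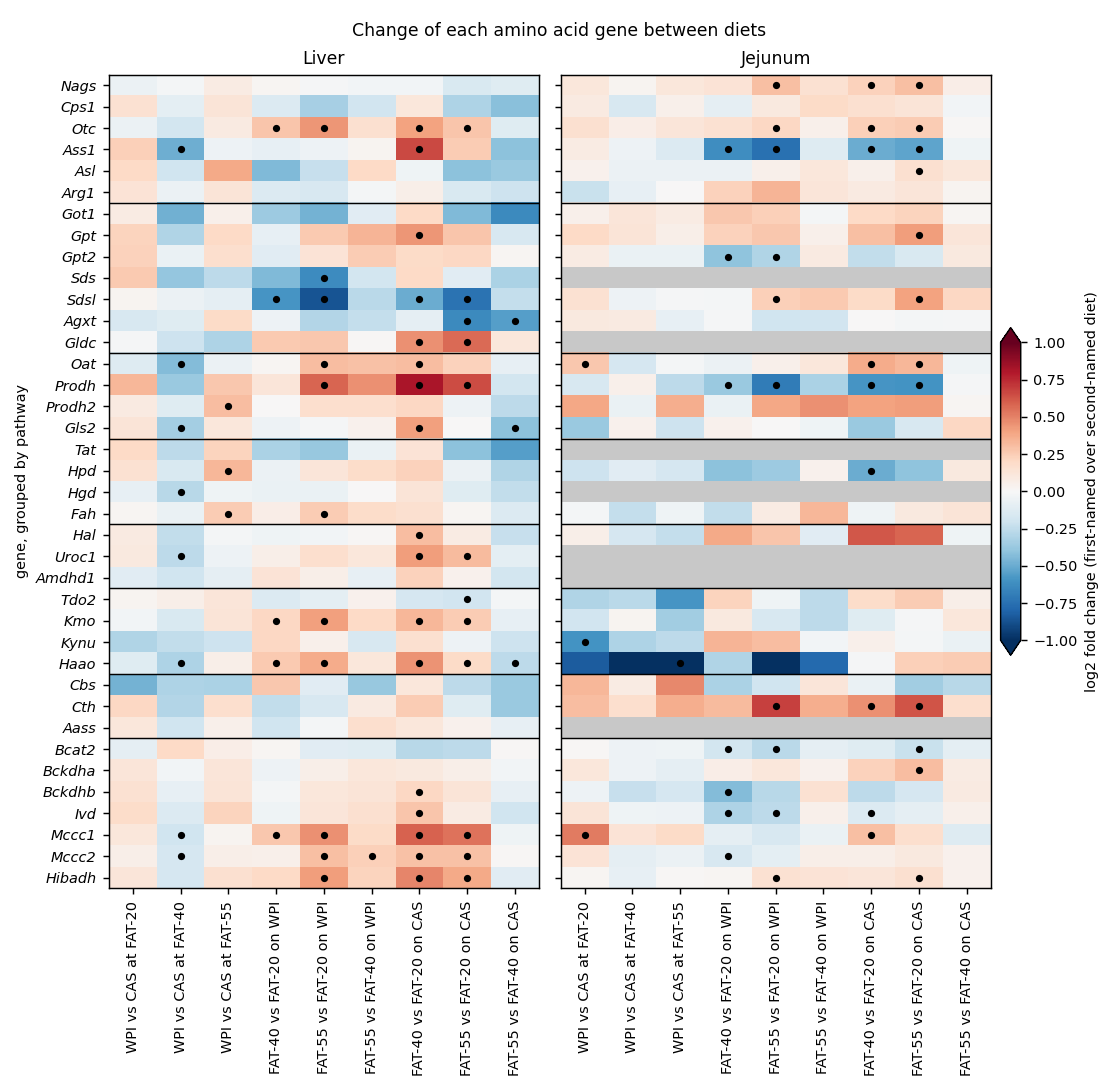
Log2 fold change (colour, first-named over second-named diet) of each gene in 9 comparisons in liver (left) and jejunum (right), with a dot where the gene was called and grey where it was not tested. In liver the dots gather in Otc, Mccc1, Mccc2, Hibadh, Kmo, Haao and Prodh (red) and in Sdsl (blue) under more fat, and in jejunum Prodh and Ass1 are blue under more fat.

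With FAT-55 against FAT-20, liver Otc, Mccc1, Mccc2, Hibadh, Kmo, Haao and Prodh rose and Sdsl fell on both proteins by edgeR. Of these, Prodh passed on neither protein with reads summed over stems, and Haao did not pass on CAS. Going to FAT-55 on CAS, 9 genes rose and 3 fell against FAT-20 (31.6% of the 38), where 22.6% of all genes rose and 20.7% fell (43.3%). On WPI the same step raised 9 and lowered 2 (28.9%), where 14.6% of all genes rose and 12% fell (26.6%). FAT-40 against FAT-20 raised 16 and lowered 1 on CAS (44.7%), where 15.8% of all genes rose and 14.4% fell (30.2%). On WPI it raised 4 and lowered 1 (13.2%), where 4.19% of all genes rose and 2.35% fell (6.54%). The median log2 change of the 38 genes was 0.21 for FAT-40 against FAT-20 on CAS and lay between -0.04 and 0.05 in the other 3 comparisons, with medians of all genes between -0.01 and 0.01. For FAT-55 against FAT-40 few genes were called: 0 rose and 3 fell on CAS (7.89%), where 2.61% of all genes rose and 0.99% fell (3.6%), and 1 rose on WPI (2.63%), where 1.36% rose and 0.924% fell (2.29%). With reads summed over stems, fewer of the 38 were called for FAT-55 on WPI and for FAT-40 on both proteins. The same held for FAT-55 against FAT-40.

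Otc, which joins carbamoyl phosphate to ornithine to form citrulline in mitochondria, was the urea cycle gene called in the most liver comparisons. In WPI livers Otc had a lowest, median and highest level of 311, 398 and 432 CPM at FAT-20, of 341, 468 and 588 CPM at FAT-40 and of 463, 529 and 612 CPM at FAT-55. In CAS livers the same values were 336, 424 and 465 CPM at FAT-20, 466, 548 and 616 CPM at FAT-40 and 369, 514 and 570 CPM at FAT-55. Every WPI FAT-55 liver lay above every WPI FAT-20 liver, and every CAS FAT-40 liver above every CAS FAT-20 liver, the lowest and highest being 466 and 465 CPM. Otc rose 1.35-fold on WPI with FAT-55 against FAT-20 (log2 0.44 ± 0.06 SE, adjusted p = 4.3e-07) and 1.21-fold on CAS (0.28 ± 0.07, adjusted p = 5.3e-04). FAT-40 against FAT-20 gave 0.28 ± 0.06 on WPI (adjusted p = 0.0034) and 0.40 ± 0.07 on CAS (adjusted p = 2.4e-06). With reads summed over mice that share an identifier stem, the Otc change with FAT-40 on WPI was 0.30 and no longer passed (adjusted p = 0.12).

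Ass1, the enzyme that condenses citrulline with aspartate, was called in 1 of the 6 liver comparisons between fat levels. Its lowest, median and highest levels in CAS livers were 1487, 1994 and 2658 CPM at FAT-20, 2240, 3321 and 4891 CPM at FAT-40 and 1402, 2411 and 3885 CPM at FAT-55. WPI livers had medians of 2222, 2112 and 2256 CPM at the 3 fat levels, within an overall range of 1416 to 4455 CPM. On CAS all 12 FAT-40 livers exceeded the FAT-20 median, although the ranges overlapped, and Ass1 rose 1.58-fold (0.66 ± 0.14, adjusted p = 2.0e-04). The other 4 urea cycle genes were called in no liver comparison: log2 changes ran from -0.42 to 0.15 for Cps1, the carbamoyl phosphate synthetase, from -0.44 to 0.38 for Asl, which splits argininosuccinate, from -0.21 to 0.14 for Arg1, the arginase that forms urea, and from -0.15 to 0.14 for Nags, which makes the activator of Cps1. Their smallest adjusted p-values were 0.064, 0.086, 0.26 and 0.055 in that order.

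Mccc1 and Mccc2 encode the 2 subunits of methylcrotonyl-CoA carboxylase, a biotin enzyme of leucine breakdown. Mccc1 had a lowest, median and highest level of 33.4, 39.6 and 46.1 CPM at FAT-20, of 36.1, 45.3 and 68.1 CPM at FAT-40 and of 49.2, 54.7 and 60.6 CPM at FAT-55 in WPI livers. In CAS livers these were 30.4, 36.7 and 46.3 CPM at FAT-20, 48.6, 55.2 and 62.4 CPM at FAT-40 and 45, 54.1 and 58.2 CPM at FAT-55. On CAS the FAT-40 and FAT-55 ranges overlapped, and the WPI FAT-40 range overlapped those of both other fat levels. Mccc1 rose with FAT-55 against FAT-20 by log2 0.46 ± 0.07 on WPI (adjusted p = 4.0e-07, ranges apart) and by 0.54 ± 0.07 on CAS (adjusted p = 5.3e-09), and with FAT-40 by 0.27 ± 0.07 on WPI (adjusted p = 0.0064) and 0.59 ± 0.07 on CAS (adjusted p = 8.0e-10, ranges apart). The Mccc1 call with FAT-40 on WPI was lost with stems summed (0.28, adjusted p = 0.18) and with stem as a random effect (0.25, adjusted p = 0.06).

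Mccc2, the second subunit, rose with FAT-55 against FAT-20 on both proteins. Its medians in order of rising fat were 67.7, 67.9 and 79.0 CPM on WPI and 63.4, 77.2 and 78.9 CPM on CAS. On WPI it rose with FAT-55 against FAT-40 (0.24 ± 0.05, adjusted p = 0.0071), the only one of the 38 that edgeR called there, where DESeq2 called 3. That call was lost with stems summed (0.24, adjusted p = 0.2) and with stem as a random effect (0.24, adjusted p = 0.099). On CAS, Mccc2 rose with FAT-40 against FAT-20 (0.29 ± 0.05, adjusted p = 2.3e-05). Hibadh, which oxidises 3-hydroxyisobutyrate from valine, had medians of 282, 337 and 381 CPM on WPI and 265, 367 and 357 CPM on CAS. It rose with FAT-55 against FAT-20 by 0.42 ± 0.07 on WPI (adjusted p = 3.7e-06, ranges apart at 341 and 330 CPM) and by 0.38 ± 0.07 on CAS (adjusted p = 1.7e-05). Ivd, the isovaleryl-CoA dehydrogenase of leucine breakdown, and Bckdhb, a subunit of the branched-chain ketoacid dehydrogenase, rose with FAT-40 against FAT-20 on CAS alone among the fat comparisons (0.28 ± 0.08, adjusted p = 0.0068, and 0.21 ± 0.07, adjusted p = 0.024), and Bckdha and the transaminase Bcat2 were called in no liver comparison. Bckdhb means by stem overlapped slightly, at 60.4 to 70.5 CPM in CAS FAT-20 and 70 to 81.6 CPM in CAS FAT-40 livers.

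Otc, Mccc1 and Mccc2 rose in liver with FAT-55 on both proteins, and the sequences before their transcription starts are shown for reference. They are the 250 bases upstream of the RefSeq start on GRCm38.p6, written 5′ to 3′ on the strand of the gene, in lower case, and lie outside the annotated gene bodies. Capitals mark an E box (CACGTG), the only one of 7 searched motifs that occurs in any of the 3. The windows are at chrX:10252055-10252304 on the plus strand for Otc, chr3:36000679-36000928 on the minus strand for Mccc1 and chr13:100015640-100015889 on the minus strand for Mccc2.
Otc: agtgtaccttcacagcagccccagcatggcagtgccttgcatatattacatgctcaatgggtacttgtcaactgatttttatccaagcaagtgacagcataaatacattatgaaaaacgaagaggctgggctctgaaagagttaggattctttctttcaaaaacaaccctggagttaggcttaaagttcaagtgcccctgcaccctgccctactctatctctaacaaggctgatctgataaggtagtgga
Mccc1: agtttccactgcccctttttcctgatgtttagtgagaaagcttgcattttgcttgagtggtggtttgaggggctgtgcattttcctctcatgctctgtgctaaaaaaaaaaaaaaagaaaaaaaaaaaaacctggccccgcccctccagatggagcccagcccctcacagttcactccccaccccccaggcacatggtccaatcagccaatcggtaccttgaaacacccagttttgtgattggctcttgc
Mccc2: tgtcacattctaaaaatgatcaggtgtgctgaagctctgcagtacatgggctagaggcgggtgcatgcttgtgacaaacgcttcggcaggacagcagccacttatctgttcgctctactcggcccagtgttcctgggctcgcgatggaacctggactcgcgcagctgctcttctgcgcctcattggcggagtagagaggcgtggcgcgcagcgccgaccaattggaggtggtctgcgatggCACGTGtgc
RefSeq windows were at hand for 29 of the 38 genes, and each motif was searched on both strands. The E box was present in 3 of the 29 (10.3%; Ass1, Cbs and Mccc2), against 7.61% of 17491 genes. A C/EBP box (TTGCNNAA) was present in 4 of 29 (13.8%; Hal, Hgd, Prodh2 and Aass), against 10.5% of genes. The core of the cAMP response element (TGACG) was present in 1 of 29 (3.45%), against 22.6%, and the TATA box (TATAAA) in 3 of 29 (10.3%), against 13.7%. The glucocorticoid response element, the HNF1 site and the direct repeat of AGGTCA with 1 base between were present in 0 of 29, against 0.412%, 0.00572% and 0.0515% of genes. These are matches of letters in short windows and carry no statement about binding.

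**Figure D3:**
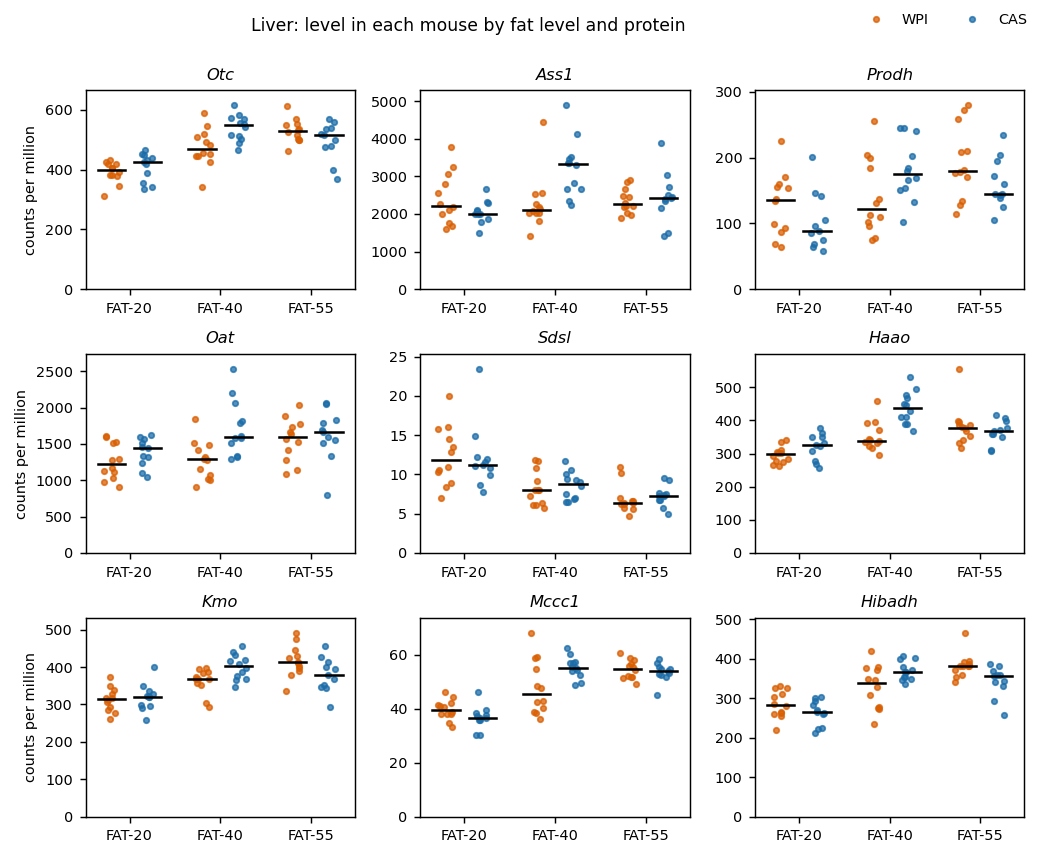
Level (CPM) of 9 genes in each liver by fat level, WPI left of CAS, with a black line at the group median. The medians of Otc, Mccc1, Hibadh and Kmo climb with each fat level on WPI and on CAS are higher at FAT-40 and FAT-55 than at FAT-20, those of Sdsl decline on both proteins, and the Ass1 median is highest in CAS FAT-40 livers.

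Prodh, the proline dehydrogenase that begins proline oxidation, had a lowest, median and highest level of 64.5, 135 and 225 CPM at FAT-20, of 74.9, 122 and 255 CPM at FAT-40 and of 115, 180 and 280 CPM at FAT-55 in WPI livers. In CAS livers these were 58.0, 88.3 and 201 CPM, then 102, 175 and 246 CPM, then 105, 145 and 234 CPM. The groups overlapped throughout, and Prodh rose by log2 0.58 ± 0.19 on WPI and 0.65 ± 0.20 on CAS with FAT-55 against FAT-20 (adjusted p = 0.018 and 0.0071) and by 0.82 ± 0.20 on CAS with FAT-40 (adjusted p = 9.0e-04). With reads summed over mice of a stem, these 3 Prodh changes were 0.60, 0.65 and 0.84 but no longer passed (adjusted p = 0.22, 0.12 and 0.068). Oat, the ornithine aminotransferase, rose with FAT-55 on WPI (0.31 ± 0.12, adjusted p = 0.043) and with FAT-40 on CAS (0.31 ± 0.12, adjusted p = 0.041), and neither call held with stems summed or as a random effect (adjusted p of 0.073 to 0.13). Gls2, the liver glutaminase, rose with FAT-40 on CAS (0.41 ± 0.10, adjusted p = 9.6e-04) and was lower again at FAT-55 than at FAT-40 (-0.41 ± 0.10, adjusted p = 0.0094), a call that was lost with stems summed (-0.40, adjusted p = 0.19).

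Among the serine, glycine and glyoxylate enzymes, Sdsl, Sds and Agxt fell and Gldc rose. Sdsl, a relative of serine dehydratase, had a lowest, median and highest level of 7.01, 11.9 and 20 CPM at FAT-20, of 5.77, 7.99 and 11.9 CPM at FAT-40 and of 4.76, 6.37 and 10.9 CPM at FAT-55 in WPI livers. In CAS livers these were 7.74, 11.2 and 23.4 CPM, then 6.47, 8.79 and 11.7 CPM, then 4.98, 7.23 and 9.56 CPM. All 12 WPI and all 11 CAS livers at FAT-55 lay below the FAT-20 median of their protein, and Sdsl fell by 0.86 on the log2 scale on WPI (SE 0.15, adjusted p = 8.1e-06) and by 0.74 on CAS (SE 0.15, adjusted p = 7.8e-05). Sds, serine dehydratase itself, was called in 1 comparison, FAT-55 against FAT-20 on WPI (-0.63 ± 0.18, adjusted p = 0.0057), and did not pass with stems summed (-0.59, adjusted p = 0.054). Agxt, which detoxifies glyoxylate, had a median of 191 CPM (147 to 302) in CAS FAT-55 livers, against 317 CPM (244 to 505) in CAS FAT-20 livers and 308 CPM (194 to 493) in CAS FAT-40 livers. It fell against both (-0.64 ± 0.14, adjusted p = 1.9e-04, and -0.55 ± 0.14, adjusted p = 0.014). The Agxt difference from FAT-40 was lost with stems summed (-0.50, adjusted p = 0.32) and with stem as a random effect (-0.51, adjusted p = 0.088). Gldc, of the glycine cleavage system, rose with FAT-55 and FAT-40 on CAS (0.57 ± 0.18 and 0.46 ± 0.18, adjusted p = 0.0084 and 0.04). Its means by stem overlapped, at 98.7 to 227 CPM at FAT-20, 148 to 305 CPM at FAT-40 and 158 to 269 CPM at FAT-55. Of the aminotransferases, Gpt rose with FAT-40 on CAS (0.44 ± 0.13, adjusted p = 0.0079; 0.45 with stems summed, adjusted p = 0.12), while Gpt2 and Got1 were called in no liver comparison.

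In the kynurenine route of tryptophan, Kmo and Haao rose, Tdo2 fell in 1 comparison and the kynureninase Kynu was called in none between fat levels. Kmo, kynurenine monooxygenase, had medians of 315, 369 and 413 CPM on WPI and 319, 404 and 380 CPM on CAS in order of rising fat, and its change with FAT-55 was 0.41 ± 0.06 on WPI (adjusted p = 7.0e-07) and 0.25 ± 0.06 on CAS (adjusted p = 0.0011). Haao, which forms the precursor of quinolinate, had medians of 298, 339 and 378 CPM on WPI and 327, 437 and 367 CPM on CAS. By edgeR, Haao rose in all 4 comparisons with FAT-20, from 0.19 ± 0.07 (FAT-55 on CAS, adjusted p = 0.027) to 0.45 ± 0.07 (FAT-40 on CAS, adjusted p = 8.7e-07), and on CAS it was lower at FAT-55 than at FAT-40 (-0.26 ± 0.07, adjusted p = 0.02). With stems summed, Haao no longer passed for FAT-40 on WPI (0.26, adjusted p = 0.24), FAT-55 on CAS (0.20, adjusted p = 0.13) or FAT-55 against FAT-40 on CAS (-0.25, adjusted p = 0.32). With stem as a random effect, FAT-40 on WPI (0.25, adjusted p = 0.068) and FAT-55 against FAT-40 on CAS (-0.25, adjusted p = 0.1) were lost for Haao. Tdo2, the tryptophan dioxygenase that opens the route, was lower in CAS FAT-55 than in CAS FAT-20 livers (-0.19 ± 0.08, adjusted p = 0.049). Tdo2 means by stem overlapped, at 1732 to 2152 CPM against 1877 to 2559 CPM.

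Uroc1, the urocanase of histidine breakdown, rose with FAT-40 and FAT-55 on CAS (0.42 ± 0.08, adjusted p = 1.0e-05, and 0.32 ± 0.08, adjusted p = 4.2e-04), and Hal, the histidine ammonia-lyase before it, rose with FAT-40 on CAS (0.31 ± 0.12, adjusted p = 0.042). Hal means by stem overlapped, at 330 to 508 CPM in CAS FAT-20 and 381 to 643 CPM in CAS FAT-40 livers. Fah, the last enzyme of tyrosine breakdown, rose with FAT-55 on WPI (0.25 ± 0.07, adjusted p = 0.0036). Tat, Amdhd1, Aass, which starts lysine breakdown, and Cth, which makes cysteine from cystathionine, were called in no liver comparison. Of 54 other enzymes of amino acid breakdown tested in liver, 22 rose and 7 fell with FAT-55 on CAS (all genes 22.6% and 20.7%), 29 rose and 2 fell with FAT-55 on WPI (14.6% and 12%), 31 rose and 4 fell with FAT-40 on CAS (15.8% and 14.4%), and 3 rose and 1 fell with FAT-40 on WPI (4.19% and 2.35%). Their median log2 changes were 0.15, 0.21, 0.21 and 0.06 in that order. Of 17 regulators and signalling genes of hepatic amino acid breakdown, 1 rose and 8 fell, 2 rose and 4 fell, 1 rose and 7 fell, and 1 rose and 1 fell in the same 4 comparisons, with medians of -0.16, -0.06, -0.10 and -0.07. Of 13 amino acid shortage genes, 1 rose and 3 fell, 0 rose and 3 fell, 1 rose and 5 fell, and 0 were called, with medians of 0.12, -0.12, -0.26 and 0.09.

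Cell type markers moved in the same livers. The hepatocyte sum had medians of 109383, 102692 and 102458 CPM on WPI and 112290, 98567 and 87953 CPM on CAS in order of rising fat. The summed adipose list, which includes genes that hepatocytes induce when they store fat, had medians of 15.8, 11.8 and 22.5 CPM on WPI and 15.2, 26.5 and 77.6 CPM on CAS. Pancreas acinar markers reached 1196 CPM in 1 WPI FAT-40 liver, where the group median was 24.9 CPM. The part of these markers in the changes of the 38 genes was not tested.

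Averaged over fat levels, 0 of the 38 genes rose and 5 fell on WPI against CAS (13.2%), where 7.1% of all genes rose and 7.56% fell (14.7%), with a median log2 change of -0.01 (all genes 0.00). The 5 were Cbs, which makes cystathionine (-0.37 ± 0.10, adjusted p = 0.0083), Kynu, kynureninase (-0.25 ± 0.08, adjusted p = 0.026), Oat (-0.21 ± 0.07, adjusted p = 0.031), Hgd, of tyrosine breakdown (-0.13 ± 0.04, adjusted p = 0.025), and Haao (-0.12 ± 0.04, adjusted p = 0.031). Of the 36 WPI livers, 27 lay below the CAS median of their fat level for Cbs, Hgd and Oat, 26 for Haao and 25 for Kynu. Medians of Cbs, Kynu, Oat and Hgd were lower on WPI at every fat level. The Haao median was lower on WPI at FAT-20 (298 against 327 CPM) and FAT-40 (339 against 437 CPM). At FAT-55 it was higher on WPI (378 against 367 CPM). With reads summed over stems, none of the 38 passed in this comparison, and with stem as a random effect 1 did, the call of Cbs.

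The median log2 difference of the 38 genes, WPI against CAS, was 0.10 at FAT-20, -0.20 at FAT-40 and 0.10 at FAT-55, against 0.00, 0.01 and 0.00 for all genes, with 26, 2 and 27 of the 38 above 0. At FAT-20 the edgeR test called 0 genes (0.512% of all genes; 0.219% higher and 0.292% lower), with 5 of the 38 at an unadjusted p under 0.05, and the count by DESeq2 was also 0. At FAT-40, 0 rose and 8 fell on WPI (21.1%), where 3.85% of all genes rose and 4.37% fell (8.21%). Ass1 had a lowest, median and highest level of 1416, 2112 and 4455 CPM in WPI FAT-40 livers, against 2240, 3321 and 4891 CPM in CAS FAT-40 livers. Of the 12 WPI livers, 11 lay below the CAS median and the ranges overlapped (-0.49 ± 0.14, adjusted p = 0.014). Oat (-0.43 ± 0.12), Gls2 (-0.34 ± 0.10), Haao (-0.31 ± 0.07), Hgd (-0.28 ± 0.07), Uroc1 (-0.26 ± 0.07), Mccc1 (-0.20 ± 0.07) and Mccc2 (-0.17 ± 0.05) fell as well, with adjusted p from 0.002 for Haao to 0.043 for Mccc1. At FAT-55, 3 rose and 0 fell (7.89%), where 7.07% of all genes rose and 7.43% fell (14.5%). These were the tyrosine enzymes Hpd (0.33 ± 0.10, adjusted p = 0.014) and Fah (0.25 ± 0.07, adjusted p = 0.009), and Prodh2, the hydroxyproline dehydrogenase (0.31 ± 0.08, adjusted p = 0.0086). Fah had a lowest, median and highest level of 554, 622 and 1018 CPM in WPI FAT-55 livers, against 446, 553 and 645 CPM in CAS FAT-55 livers, and all 12 WPI livers exceeded the CAS median. Without WPI FAT-55 replicate 2, Hpd was at 0.27 and no longer passed (adjusted p = 0.05). Summed over stems, none of the 11 calls at FAT-40 and FAT-55 held (adjusted p of 0.1 to 0.31 at FAT-40 and 0.14 to 0.16 at FAT-55).

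Whether the response to fat depended on protein was tested as the difference of the 2 fat responses. For FAT-40 against FAT-20, the difference WPI minus CAS was above 0 for 6 of the 38 genes, with a median of -0.24 (all genes 0.00), and 16 genes had an unadjusted p under 0.05. Only Ass1 passed (-0.73 ± 0.19, adjusted p = 0.034; 2.63% of the 38, against 1.49% of all genes, 0.877% higher and 0.611% lower), with a response of -0.08 on WPI and 0.66 on CAS. Next came Uroc1 (-0.36 ± 0.10, adjusted p = 0.057), Gls2 (-0.46 ± 0.14, adjusted p = 0.066) and Mccc1 (-0.31 ± 0.10, adjusted p = 0.071). The call of Ass1 was lost with no filter on low counts (-0.75, adjusted p = 0.058), with stem as a random effect (-0.72, adjusted p = 0.19) and with stems summed (-0.73, adjusted p = 0.47). In the other direction, DESeq2 called more of the 38 for this difference, and so did edgeR without WPI FAT-55 replicate 2. For FAT-55 against FAT-20, edgeR called 0 of the 38 (6.82% of all genes, 3% higher and 3.82% lower) and 1, Fah, had an unadjusted p under 0.05; DESeq2 also called 0.

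In jejunum, Otc, Nags, Cth, Sdsl and Hibadh rose and Prodh, Ass1 and Bcat2 fell with FAT-55 against FAT-20 on both proteins, while Cps1 and Cbs were called in no comparison. FAT-55 against FAT-20 raised 9 genes and lowered 3 on CAS (38.7% of 31), where 14.4% of all genes rose and 13.3% fell (27.7%), and raised 5 and lowered 5 on WPI (32.3%), where 14.2% rose and 16.6% fell (30.8%). FAT-40 against FAT-20 raised 5 and lowered 4 on CAS (29%), where 12.7% rose and 12.4% fell (25.1%), and raised 0 and lowered 7 on WPI (22.6%), where 12.7% rose and 13% fell (25.8%). Median log2 changes of the 31 genes were 0.13, 0.05, 0.06 and -0.06 in that order, against -0.01, -0.03, -0.03 and -0.02 for all genes. Between FAT-40 and FAT-55 edgeR and DESeq2 called 0 of the 31 on either protein (0.0294% of all genes on CAS and 0.653% on WPI by edgeR), with 1 and 6 at an unadjusted p under 0.05.

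Smooth muscle and adipose markers moved with these changes. Summed smooth muscle markers had medians, from low to high fat, of 1445, 672 and 600 CPM on WPI and 1265, 605 and 781 CPM on CAS. The adipose sum had medians of 180, 122 and 128 CPM on WPI and 141, 105 and 111 CPM on CAS. Summed crypt stem and Paneth cell markers had medians of 6174, 4118 and 3428 CPM on WPI and 6599, 4284 and 4064 CPM on CAS. B and plasma cell markers had medians of 1119, 839 and 615 CPM on WPI and 1759, 1223 and 831 CPM on CAS. The part of these last 2 lists was not tested. With scores of the smooth muscle and adipose lists as covariates, members called fell to 0 (WPI) and 3 (CAS) for FAT-55 against FAT-20, and to 1 (WPI) and 0 (CAS) for FAT-40. Sums of both lists were themselves lower at FAT-40 and FAT-55 than at FAT-20. The share of all genes called with these covariates is not given here, so the drop is no statement about these genes in particular. The loss of calls with covariates limits every jejunal fat result below, and the covariate values stand beside the genes where they differ most.

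Of the citrulline genes, Otc and Nags rose with FAT-55 on both proteins. Otc had lowest, median and highest levels of 148, 198 and 243 CPM at FAT-20, 194, 221 and 270 CPM at FAT-40 and 203, 229 and 247 CPM at FAT-55 in WPI jejunum. In CAS jejunum these were 133, 188 and 224 CPM, then 172, 218 and 236 CPM, then 163, 215 and 263 CPM. The groups overlapped, and Otc rose by 0.21 ± 0.07 on WPI (adjusted p = 0.018) and 0.25 ± 0.07 on CAS (adjusted p = 0.0081) with FAT-55. With stems summed, neither Otc change passed (0.23 on WPI, adjusted p = 0.13, and 0.27 on CAS, adjusted p = 0.072). With marker covariates the Otc change was 0.00 on WPI (adjusted p = 0.99) and 0.09 on CAS (adjusted p = 0.6). Nags had medians of 45.1, 48.0 and 53.0 CPM on WPI and 41.9, 49.9 and 53.6 CPM on CAS, and rose by 0.30 ± 0.07 on both proteins with FAT-55 (adjusted p = 9.3e-04 on WPI and 0.0019 on CAS). With covariates it was at 0.09 on WPI and 0.14 on CAS (adjusted p = 0.71 and 0.39). Oat, which links proline and ornithine, rose on CAS with FAT-55 (0.33 ± 0.09, adjusted p = 0.0034) and FAT-40 (0.37 ± 0.09, adjusted p = 0.0012). With the marker covariates the Oat changes stayed at 0.32 and 0.36 without passing (adjusted p = 0.088 and 0.13).

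Ass1 and Prodh fell in jejunum under more fat on both proteins. Ass1 had lowest, median and highest levels of 5.26, 8.12 and 12.1 CPM at FAT-20, 2.05, 5.70 and 6.93 CPM at FAT-40 and 3.62, 4.61 and 6.85 CPM at FAT-55 in WPI jejunum. In CAS jejunum these were 4.99, 8.16 and 10.3 CPM, then 4.33, 5.45 and 7.71 CPM, then 3.07, 5.53 and 8.13 CPM. All FAT-55 libraries lay below the FAT-20 median of their protein, and Ass1 fell by 0.75 on the log2 scale on WPI (SE 0.14, adjusted p = 4.8e-05) and by 0.53 on CAS (SE 0.15, adjusted p = 0.0051). With covariates the Ass1 changes were -0.20 and -0.23 (adjusted p = 0.58 and 0.36). Prodh had medians of 20.3, 16.3 and 12.3 CPM on WPI and 23.3, 15.9 and 16.7 CPM on CAS, with a highest level of 39.8 CPM at FAT-20. Prodh fell by 0.70 on WPI (SE 0.13, adjusted p = 3.0e-05) and by 0.60 on CAS (SE 0.13, adjusted p = 6.5e-04) with FAT-55. On WPI the Prodh change with covariates was -0.64 (adjusted p = 0.058), so its size moved little.

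Cth, the cystathionine lyase that yields cysteine, had the largest rise with FAT-55 among the genes called in jejunum. Its lowest, median and highest levels were 66.7, 89.6 and 126 CPM at FAT-20, 81.9, 98.3 and 226 CPM at FAT-40 and 117, 145 and 207 CPM at FAT-55 on WPI. On CAS they were 58.0, 79.1 and 95.1 CPM, then 86.6, 103 and 125 CPM, then 70.1, 120 and 156 CPM. Cth rose 1.6-fold on WPI (0.68 ± 0.14, adjusted p = 9.4e-05) and 1.55-fold on CAS (0.63 ± 0.14, adjusted p = 6.8e-04) with FAT-55, and with covariates it was at 0.21 and 0.23 (adjusted p = 0.62 and 0.44). Sdsl rose by 0.24 ± 0.09 on WPI (adjusted p = 0.025) and by 0.40 ± 0.09 on CAS (adjusted p = 7.0e-04). Without WPI FAT-20 replicates 1 and 9, the rises of Otc (0.17, adjusted p = 0.057) and Sdsl (0.22, adjusted p = 0.058) and the fall of Gpt2 (-0.23, adjusted p = 0.12) with FAT-55 on WPI no longer passed, nor did the rise of Hibadh. The count of members called there was then 6, with 2 higher and 4 lower, in place of 10.

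Of the branched-chain genes of the jejunum, Bcat2, the transaminase of the first step, fell with FAT-55 by 0.27 on WPI (SE 0.07, adjusted p = 0.0022) and by 0.22 on CAS (SE 0.07, adjusted p = 0.021), and passed on neither with stems summed (adjusted p = 0.068 and 0.1). Ivd fell with FAT-55 on WPI (-0.26 ± 0.05, adjusted p = 9.6e-05) and with FAT-40 on WPI (-0.31 ± 0.05, adjusted p = 2.8e-05), and its FAT-55 change was the same size with covariates (-0.26, adjusted p = 0.057). Hibadh rose by 0.15 ± 0.06 on WPI and 0.16 ± 0.06 on CAS with FAT-55 (adjusted p = 0.033 and 0.031). On CAS with FAT-55, Bckdha (0.31 ± 0.09, adjusted p = 0.0089), Gpt (0.42 ± 0.13, adjusted p = 0.012) and Asl (0.16 ± 0.06, adjusted p = 0.044) rose too. On WPI with FAT-40, Bckdhb (-0.43 ± 0.12, adjusted p = 0.0057), Gpt2 (-0.40 ± 0.11, adjusted p = 0.0051) and Mccc2 (-0.16 ± 0.06, adjusted p = 0.031) fell, of which Mccc2 did not pass without WPI FAT-20 replicates 1 and 9 (-0.14, adjusted p = 0.081). On CAS with FAT-40, Mccc1 rose (0.30 ± 0.08, adjusted p = 0.0059) and Ivd fell (-0.14 ± 0.05, adjusted p = 0.047), and neither passed with stems summed (adjusted p = 0.053 for Mccc1 and 0.16 for Ivd).

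**Figure D4:**
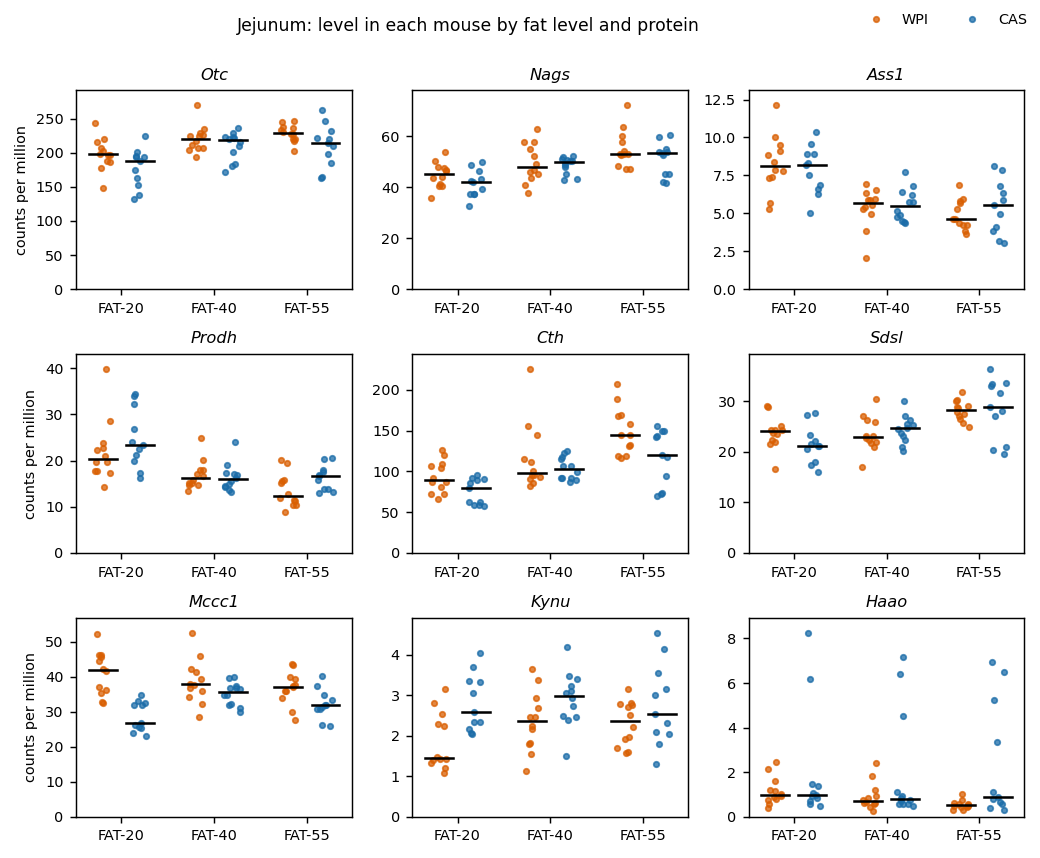
Level (CPM) of 9 genes in each jejunum by fat level, WPI left of CAS, with a black line at the group median. Otc, Nags and Cth are higher and Ass1 and Prodh lower at FAT-55, Mccc1 is higher on WPI at FAT-20, and a few CAS mice carry Haao levels far above the rest.

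On WPI against CAS, averaged over fat, 3 jejunal genes rose and 3 fell (19.4% of 31), where 6.5% of all genes rose and 8.83% fell (15.3%), with a median of -0.02 (all genes -0.01). Mccc1 rose (0.28 ± 0.05, adjusted p = 8.6e-06, 31 of 36 WPI libraries above the CAS median of their fat level), as did Cth (0.28 ± 0.08, adjusted p = 0.01) and Otc (0.12 ± 0.04, adjusted p = 0.041). At FAT-20, Mccc1 had a lowest, median and highest level of 32.6, 42 and 52.4 CPM in WPI jejunum, against 23.0, 26.7 and 34.7 CPM in CAS jejunum. All 12 WPI libraries lay above the CAS median, and the difference was 0.52 ± 0.08 (adjusted p = 1.5e-05). At that fat level 2 genes rose and 1 fell (9.68%), where 2.66% of all genes rose and 3.57% fell (6.23%), the others being Oat (0.27 ± 0.09, adjusted p = 0.047) and Kynu (-0.60 ± 0.18, adjusted p = 0.031). Neither Oat (adjusted p = 0.073) nor Kynu (adjusted p = 0.11) passed without WPI FAT-20 replicates 1 and 9. At FAT-40 edgeR called 0 (0.571% of all genes; 2 of 31 at an unadjusted p under 0.05), and so did DESeq2.

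In the kynurenine route, 3 genes were lower in WPI than in CAS jejunum, averaged over fat: Haao (-1.37 ± 0.29, adjusted p = 3.5e-04), Kynu (-0.39 ± 0.10, adjusted p = 0.0049) and Tdo2 (-0.39 ± 0.13, adjusted p = 0.031). Kmo, of the same route, was called in no jejunal comparison (smallest adjusted p = 0.38). Counts of Tdo2 were near the floor, with a median of 10 reads per library (4 to 22). With stems summed, fewer jejunal genes were called averaged over fat. Haao had lowest, median and highest levels of 0.298, 0.517 and 1.04 CPM in WPI FAT-55 jejunum, against 0.325, 0.906 and 6.95 CPM in CAS FAT-55 jejunum. It was the only call at FAT-55 (-2.15 ± 0.52, adjusted p = 0.0079; 3.23% of 31, against 3.7% of all genes, 0.889% higher and 2.81% lower). The difference rested on a minority of mice: 9 of 34 CAS libraries had 3.33 to 8.26 CPM, above the highest WPI library at 2.47 CPM, and the other 25 reached at most 1.49 CPM. These 9 came from 7 of the 12 CAS stems, 2 at FAT-20, 3 at FAT-40 and 4 at FAT-55. With stem as a random effect, Haao was at -0.76 averaged over fat (adjusted p = 0.13) and at -1.38 at FAT-55 (adjusted p = 0.35). That setting also fits log2 CPM with limma in place of counts with edgeR. The parts of the stem term and of the log scale in these smaller sizes were not told apart. T cell markers had summed medians of 22.4, 29.9 and 25.6 CPM in WPI jejunum, against 39.1, 34.6 and 41.2 CPM in CAS jejunum at the 3 fat levels, and their part in the kynurenine results was not tested. Protein dependence of the fat responses gave 0 calls in jejunum by edgeR and by DESeq2 (0% and 0.0118% of all genes for FAT-55 and FAT-40), with 4 of 31 genes at an unadjusted p under 0.05 in each. Among 47 other enzymes of amino acid breakdown tested in jejunum, 12 rose and 3 fell on WPI averaged over fat (all genes 6.5% and 8.83%), 9 rose and 8 fell with FAT-55 on WPI (14.2% and 16.6%), and 11 rose and 5 fell with FAT-55 on CAS (14.4% and 13.3%).

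The same mice gave both tissues, so the fat response in liver could be set against that in jejunum with limma on paired log2 CPM differences over 13965 genes. This fit had no term for stems. For FAT-55 against FAT-20, the response differed between liver and jejunum for 15 of 31 genes on WPI (9 more positive and 6 more negative in liver), where 30.4% of all genes differed (14.8% and 15.6%), and for 11 on CAS (4 and 7), where 44.6% of all genes did (23.2% and 21.4%). Prodh moved in opposite directions, with a liver response of 0.58 against -0.70 in jejunum on WPI and 0.65 against -0.60 on CAS, and the difference was 1.31 ± 0.19 on WPI (adjusted p = 5.0e-07) and 1.28 ± 0.20 on CAS (adjusted p = 6.7e-07). Sdsl did the reverse, with -0.86 in liver against 0.24 in jejunum on WPI and -0.74 against 0.40 on CAS. The Sdsl difference was -1.07 ± 0.16 on WPI (adjusted p = 8.4e-07) and -1.08 ± 0.17 on CAS (adjusted p = 7.1e-07). Cth (-0.82 ± 0.17 on WPI and -0.74 ± 0.18 on CAS) and Nags (-0.31 ± 0.08 and -0.45 ± 0.09) responded more positively in jejunum, while Ass1 (0.72 ± 0.22 and 0.78 ± 0.23), Mccc1 (0.62 ± 0.10 and 0.37 ± 0.11) and Hibadh (0.27 ± 0.09 and 0.22 ± 0.09) responded more positively in liver. Otc rose in both tissues, and its difference between them was not called on either protein.

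**Figure D5:**
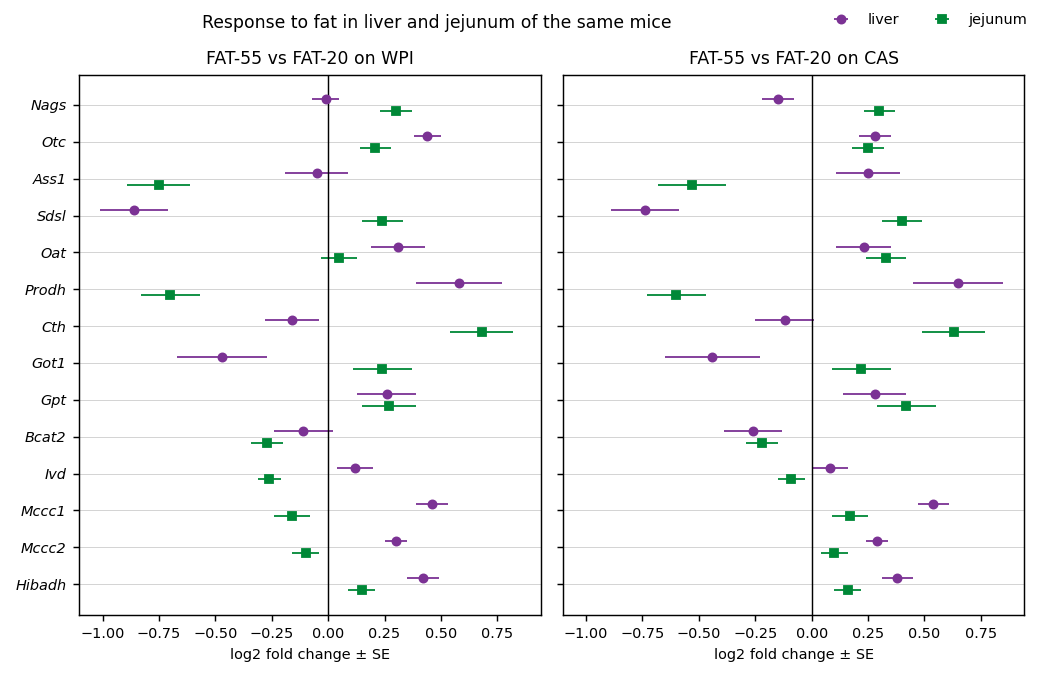
Log2 fold change ± SE of 14 genes for FAT-55 against FAT-20 on WPI (left) and CAS (right), liver (circles) above jejunum (squares) in each line. Prodh and Sdsl point in opposite directions in the 2 tissues on both proteins, and Otc and Gpt lie on the same side of 0.

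For FAT-40 against FAT-20, 11 of 31 genes differed between tissues on CAS (9 more positive and 2 more negative in liver), where 33.6% of all genes did (17.3% and 16.2%), and 6 on WPI (2 and 4), where 17.7% did (8.65% and 9.08%). On CAS the differences of Prodh (1.44 ± 0.20, adjusted p = 7.3e-08), Ass1 (1.12 ± 0.23, adjusted p = 1.1e-04) and Ivd (0.43 ± 0.11, adjusted p = 0.0014) joined calls of opposite sign in the 2 tissues. The protein effect averaged over fat differed between tissues for 5 of 31 genes, where 15.8% of all genes did, among them Mccc1, at -0.02 in liver against 0.28 in jejunum (difference -0.31 ± 0.06, adjusted p = 1.5e-04). Within diets, a mouse's liver level went with its jejunal level for Gpt, an alanine aminotransferase (Pearson r = 0.49, Spearman rho = 0.55, permutation p = 7.0e-05 and 2.0e-05 over 70 mice, adjusted p = 0.0022 and 8.5e-04 over all genes, r = 0.51 without the 2 mice farthest from the median). Bcat2 passed by r (0.39, adjusted permutation p = 0.027) but not by rho (0.33, adjusted permutation p = 0.075), and r was 0.31 without 2 mice. The other 29 did not pass: 15 of the 31 correlations were positive, their median r was 0.00 against 0.09 for all genes, and 8.62% of all genes passed. The permutations exchanged single mice within a diet without regard to stems. A link between stems therefore cannot be told from a link between single mice in these correlations.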

How the data were processed

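Liver and jejunum gene counts were analysed as the authors deposited them, 1 whole-number count table per tissue with 70 libraries each. Per the submitters' processing notes the build was GRCm38 and the tools named are STAR, DESeq2 1.24.0, Trim Galore 0.61, FastQC and cutadapt; the strand setting and annotation release are not given in the sources used here. Rows that name no gene held 23.81% of liver and 23.02% of jejunal reads and were left out. A hypothalamus table was not used here.

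Counts were tested with edgeR 4.0.16 (TMM scaling, minimum count 10 and total 15, 1 coefficient per diet, all 6 diets of a tissue in 1 quasi-likelihood fit, R 4.3.3), with Benjamini-Hochberg adjustment over all genes of a tissue and comparison and a call at 0.05. Labels do not say that mice of a diet were housed apart, so p-values measure the spread between these libraries. Other settings tried were reads summed by identifier stem, stem as a random effect (limma 3.58.1), no filter, scaling by the median of ratios, DESeq2 1.42.0, and adipose and smooth muscle scores as covariates in jejunum. Leaving out libraries that stood apart and the test of liver against jejunum (limma on paired log2 CPM differences, prior count 2) were chosen after seeing the data. The genes and gene lists were chosen with earlier results of these data known. Genes named in the text were the 6 urea cycle genes, up to 12 called in most comparisons of a tissue, up to 3 with the smallest adjusted p per comparison, and the pairs Gpt and Gpt2, Prodh and Prodh2, and Sds and Sdsl; others were named after their values were seen. Lengths came from GENCODE M21. The tests were checked on simulated data drawn independently for each library, so that check does not cover likeness between mice of a stem.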

Additional observations from a re-analysis of the deposited data

Results flagged for a closer look

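The fat response of liver Ass1 differed between proteins: FAT-40 against FAT-20 on WPI minus the same on CAS was -0.73 on the log2 scale, by a test of the difference itself (adjusted p = 0.034). The call of Ass1 was lost with no filter (-0.75, adjusted p = 0.058), with stem as a random effect (-0.72, adjusted p = 0.19) and with stems summed (-0.73, adjusted p = 0.47). In 7 further cases a gene was called in both tissues with opposite signs and the test of liver minus jejunum also passed. The share of all genes that meet this rule was not computed. These were Prodh at 1.31 (FAT-55 against FAT-20 on WPI), 1.28 (the same on CAS) and 1.44 (FAT-40 against FAT-20 on CAS), Sdsl at -1.07 (FAT-55 on WPI) and -1.08 (FAT-55 on CAS), and Ivd at 0.43 and Ass1 at 1.12 (both FAT-40 on CAS). The test of liver minus jejunum had no term for stems. Among the calls within a tissue, the liver rises of Prodh and the jejunal fall of Ivd did not pass with stems summed. With smooth muscle and adipose scores as covariates, none of the genes was called in jejunum for FAT-55 on WPI or FAT-40 on CAS. The jejunal calls of Prodh and Sdsl on WPI and of Prodh, Ivd and Ass1 at FAT-40 on CAS were thus lost. Whether those of Prodh and Sdsl with FAT-55 on CAS held is not given here. Without the WPI FAT-20 libraries that stood apart, the jejunal rise of Sdsl on WPI did not pass either. The part of the lower jejunal smooth muscle and adipose markers at FAT-40 and FAT-55 in the tissue differences themselves was not tested.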

How the results depend on the processing

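Counts of members called are given as the alternative first and the reported count in brackets. Reads summed by stem gave, in liver, 0 (5) for WPI against CAS averaged over fat, 0 (8) at FAT-40, 0 (3) at FAT-55, 7 (11) for FAT-55 against FAT-20 on WPI, 9 (17) for FAT-40 on CAS, 0 (5) for FAT-40 on WPI, 0 (3) and 0 (1) for FAT-55 against FAT-40 on CAS and WPI, and 0 (1) for the FAT-40 response. In jejunum it gave 3 (6) averaged over fat, 0 (1) at FAT-55, 6 (10) for FAT-55 on WPI, and 2 (9) and 4 (7) for FAT-40 on CAS and WPI. Stem as a random effect gave, in liver, 1 (5) averaged, 3 (8) at FAT-40, 1 (5) for FAT-40 on WPI, 1 (3) and 0 (1) for FAT-55 against FAT-40 on CAS and WPI, and 0 (1) for the FAT-40 response, and in jejunum 1 (3) at FAT-20, 0 (1) at FAT-55 and 4 (7) for FAT-40 on WPI. With marker covariates the jejunal counts were 5 (3) at FAT-20, 3 (12) and 0 (10) for FAT-55 on CAS and WPI, and 0 (9) and 1 (7) for FAT-40 on CAS and WPI, and the Otc change for FAT-55 on WPI was 0.00 (0.21). No filter gave 3 (5) averaged and 0 (1) for the FAT-40 response in liver, and 1 (3) at FAT-20 in jejunum. DESeq2 gave 3 (1) for liver FAT-55 against FAT-40 on WPI and 3 (1) for the FAT-40 response. Without WPI FAT-55 replicate 2 the liver counts were 5 (3) for FAT-55 against FAT-40 on CAS and 4 (1) for the FAT-40 response. Without WPI FAT-20 replicates 1 and 9 the jejunal counts were 1 (3) at FAT-20 and 6 (10) for FAT-55 on WPI. The cause of these shifts was not tested, and the shares of all genes called under these settings are not given here. Called changes of single genes were counted for the genes named by rule in each tissue. With stems summed, 24 of 61 in liver and 24 of 44 in jejunum still passed. Stem as a random effect left 41 and 33, and no filter left 54 and 35. DESeq2 and median-of-ratios scaling each left 61 and 42, and marker covariates left 11 in jejunum. The calls of Gldc, Hal, Tdo2 and Bckdhb in liver and of Hibadh, Bckdha and Hpd in jejunum were not in these counts. Whether these calls held with stems summed is not given here. No paired analysis was possible because each diet had its own mice and replicate numbers follow accession order. This holds for diets, while liver and jejunum of 1 mouse were paired. In jejunum, averaged over fat, the largest SE among the members was 0.29, for Haao.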
